A study of Homo sapiens with 18 samples.

Results

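The MYC, MAX and MXD network was followed through BET inhibition in ovarian cancer cells. Its 10 genes, MYC, MYCN, MYCL, MAX, MXD1, MXD3, MXD4, MXI1, MNT and MGA, were taken by name from the 58825 genes of the count tables. They were chosen with earlier results of these data known. All 10 were found and all 10 passed the filter on low counts. Poly-A RNA of OVCAR-3, an established cell line of high-grade serous ovarian carcinoma, was sequenced after treatment in stripped medium, in 3 replicates of 6 groups. The groups were DMSO (the vehicle), i-BET858 (1 µM) and i-BET151 (1 µM) at 4 h, and the same treatments at 24 h. The study describes the replicates as biological. Both drugs are BET inhibitors, which keep the bromodomain proteins of the BET family from reading acetylated histones. As every library came from 1 cell line at 1 dose, the results hold for this model only.

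MYC, MYCN and MYCL (the genes of c-MYC, N-MYC and L-MYC) encode transcription factors that bind DNA only as dimers with MAX and activate genes of growth, ribosome assembly and metabolism. The MXD proteins, with MXI1 (also called MXD2) and MNT, compete for MAX and for the same DNA sites, the E-boxes, and recruit the SIN3 and histone deacetylase corepressors. MGA is a very large MAX partner that carries a second DNA-binding domain of the T-box kind and is a scaffold of a Polycomb complex named PRC1.6. MYC is the gene whose transcription is most often followed under BET inhibitors.

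As the proteins of the network bind E-boxes, the promoters of its own genes were searched for them (RefSeq, GRCh38.p14, 250 bases before to 50 after each start, both strands). Of the 10 genes, 9 were matched, with 14 promoters in all, and MYC was not among them. The letters searched were CACGTG, the canonical E-box, which reads the same on both strands, and CACGCG, a variant (CGCGTG on the other strand). CACGTG was found in 7.26% of all 35116 promoters of this length and CACGCG in 11.4%. Among the members, CACGTG was present in MXD4 (238 bases before the start) and MNT (193 bases before), and the variant was present before a start in MGA (21 bases) and 8 bases after a start in MXD3 and in MXI1. The matches before a start are shown with the bases around them, 5′ to 3′ on the strand of the gene, with the matched letters in capitals.
MXD4, chr4:2262300-2262359, minus strand: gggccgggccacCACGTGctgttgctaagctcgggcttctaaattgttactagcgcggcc
MNT, chr17:2401221-2401280, minus strand: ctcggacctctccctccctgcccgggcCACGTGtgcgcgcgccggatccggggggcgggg
MGA, chr15:41660345-41660404, plus strand: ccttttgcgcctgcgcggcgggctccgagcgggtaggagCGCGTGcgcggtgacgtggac
A match only describes the letters in this window. No binding was measured in these libraries.

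Library totals ranged from 27323969 to 46299994 counts (median 32267434), and 3 counts, the floor used for a low gene, correspond to 0.0648 to 0.110 CPM, the count scaled to the size of the library. The 6 libraries of replicate 3 stood apart, with 17817 to 20642 genes detected, while replicate 1 had 23674 to 24947 and replicate 2 had 23807 to 24938. They also carry another source name in the labels, and values from replicates 1 and 2 alone are given wherever they changed a call. The 10 serous ovarian markers checked were present in every library (PAX8 at 387 to 612 CPM and KRT8, the highest, at 3740 to 7369 CPM). Their summed level, in which KRT8 weighs most, was 8676 to 10369 CPM in DMSO at either time. It was 11500 to 12089 CPM with i-BET858 and 9780 to 10265 CPM with i-BET151 at 4 h, and 6854 to 7442 CPM with either drug at 24 h. The part of this difference in the results was not tested. Of the 8 blood, endothelial and stromal markers, CD3E was at 0 in 16 libraries and DCN in 14, whereas COL1A1 reached 21.1 to 46.7 CPM. HEXIM1, a transcript used as a marker of BET inhibition, rose with both drugs (log2 fold change of 1.87 and 1.76 with i-BET858 at 4 and 24 h, 1.25 and 1.12 with i-BET151). Counts are relative within a library, so that changes in cell number and in RNA per cell cannot be told apart from them.

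In DMSO cells the network was led by MXD4, MYCL and MAX, and MYCN was close to silent. As CPM per kilobase of merged exons (RPKM) over the 6 DMSO libraries, mean levels were 8.18 ± 0.62 (SD, n = 6) for MXD4, 6.99 ± 0.86 for MYCL, 6.57 ± 0.65 for MAX, 4.54 ± 0.91 for MYC and 4.38 ± 0.45 for MXI1. The lower members were MXD3 (3.17 ± 1.12), MGA (3.06 ± 0.61), MNT (2.17 ± 0.25), MXD1 (1.69 ± 0.30) and MYCN (0.577 ± 0.137). Each gene's range overlapped that of the next in this order, except that MXD1 (lowest library 1.19) lay above MYCN (highest 0.821). MYCL therefore took the larger share of the MYC family transcripts, 56.6% ± 2.18 (SD, n = 3) in DMSO at 4 h, where MYC took 39.1% ± 1.61. The order of the members depended on the length used. With the longest transcript in place of merged exons, MAX (11.7 to 15.2 RPKM) lay above MYCL (8.34 to 11.4 RPKM) in DMSO. The means also pool 4 and 24 h. With merged exons, MXD3 was below MGA at 4 h (2.26 against 3.44 RPKM) and above it at 24 h (4.08 against 2.67).

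The effect of each drug on the network was tested against DMSO at the same time (edgeR quasi-likelihood test, Benjamini-Hochberg adjustment over all genes, adjusted p under 0.05). At 4 h, i-BET858 changed 6 of the 10 members, 5 of them higher (MYCL, MXD1, MXD3, MXD4, MXI1) and 1 lower (MGA). Over all genes tested, 30.8% passed in that comparison, 14.5% higher and 16.3% lower. At 4 h i-BET151 also changed 6, with MYCL, MXD1, MXD3 and MXD4 higher and MGA and MYCN lower, against 16.2% of all genes (7.81% higher, 8.43% lower). At 24 h i-BET858 changed 7, with MAX, MXD1, MXD3, MXD4 and MGA higher and MYC and MYCN lower, against 41.7% of all genes (20.5% higher, 21.3% lower). At 24 h i-BET151 changed 6, the same genes but for MYC, against 33.8% of all genes (17.2% higher, 16.6% lower). The median log2 fold change over the 10 members was 0.40, 0.30, 0.26 and 0.15 in these comparisons, beside 0.02, 0.01, -0.01 and 0.00 over all genes. Both drugs were set against the same DMSO libraries, so their results are not independent.

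**Figure D1:**
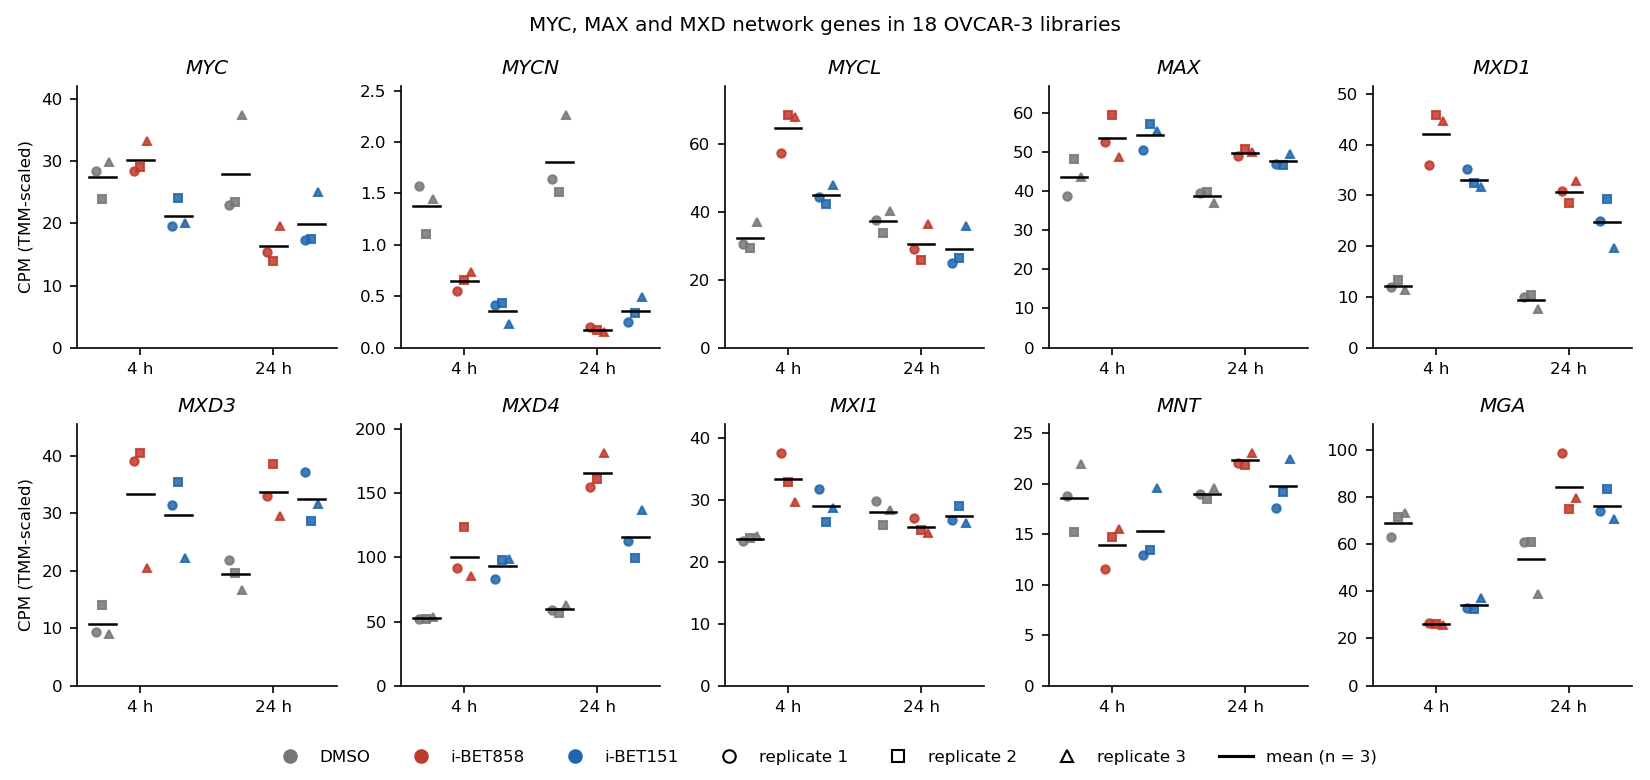
TMM-scaled CPM (linear axis from 0) of the 10 genes in 18 libraries, at 4 and 24 h, with DMSO in grey, i-BET858 in red and i-BET151 in blue; symbols give the replicate and bars the mean of 3. MXD1 and MXD4 lie above DMSO in every treated library at both times, while MGA lies below DMSO at 4 h (25.5 to 37.3 CPM against 62.9 to 73.1) and above it at 24 h (70.8 to 98.6 against 38.8 to 61.0).

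Among the activators, MYC passed the test with neither drug at 4 h and fell with i-BET858 at 24 h. At 4 h its level was 28.5, 24.0 and 29.8 CPM in DMSO, 28.5, 29.1 and 33.3 CPM with i-BET858 and 19.6, 24.2 and 20.0 CPM with i-BET151. The i-BET858 libraries overlapped DMSO (log2 fold change 0.15 ± 0.15 SE, adjusted p = 0.498), and so did those of i-BET151 (-0.37 ± 0.15, adjusted p = 0.119). With total library size as the scaling, which moved the median of all genes by -0.16 in the i-BET858 comparison, the i-BET858 value was -0.01, and it was 0.05 without DMSO replicate 2 and 0.07 without i-BET858 replicate 3. With the replicate number as a block, the i-BET151 value of -0.37 passed the test (adjusted p = 0.0426). At 24 h MYC stood at 23.1, 23.5 and 37.5 CPM in DMSO, 15.5, 14.0 and 19.5 CPM with i-BET858 and 17.3, 17.5 and 25.1 CPM with i-BET151. Every i-BET858 library was below every DMSO library, whereas replicate 3 of i-BET151 was above replicates 1 and 2 of DMSO. The fall with i-BET858 was -0.82 ± 0.23 (adjusted p = 0.0157). It depended on single libraries, with -0.52 (adjusted p = 0.0686) without DMSO replicate 3, -0.78 (0.0562) without i-BET858 replicate 1 and -0.72 (0.0607) without i-BET858 replicate 2. The i-BET151 value was -0.51 ± 0.23 (adjusted p = 0.115), which passed with the block (-0.50, adjusted p = 0.00235), with replicates 1 and 2 only (-0.46, 0.0025), without i-BET151 replicate 3 (-0.72, 0.0415) and with no filter on low counts (0.0176). Without DMSO replicate 3 it was -0.22 (adjusted p = 0.463). A long noncoding RNA on the opposite strand, CASC11, shares 3.18% of the exon bases of MYC and was at or near 0 in all groups.

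MYCN (GRCh38 chr2:15940550-15947007), the neuroblastoma member of the family, was the lowest gene of the network and, at 24 h, the member with the greatest fall. In DMSO it had 1.57, 1.11 and 1.44 CPM at 4 h and 1.64, 1.52 and 2.26 CPM at 24 h. At 4 h it had 0.547, 0.656 and 0.739 CPM with i-BET858 and 0.417, 0.436 and 0.225 CPM with i-BET151. At 24 h it had 0.196, 0.167 and 0.146 CPM with i-BET858 and 0.244, 0.335 and 0.495 CPM with i-BET151. All 12 treated libraries were thus below all 6 DMSO libraries, although these levels rest on 5 to 26 counts per treated library and 43 to 71 per DMSO library. At 24 h MYCN fell by 3.42 ± 0.53 under i-BET858 (adjusted p = 4.37e-04) and by 2.35 ± 0.50 under i-BET151 (0.00422) on the log2 scale. At 4 h its value was -1.93 ± 0.51 with i-BET151 (adjusted p = 0.0232) and -1.07 ± 0.49 with i-BET858 (adjusted p = 0.122, or 0.0432 with replicates 1 and 2 only). The i-BET151 call at 4 h was lost without any single one of the DMSO libraries or of i-BET151 replicates 1 and 2 (-1.83 to -2.10, adjusted p = 0.056 to 0.0996), and with no filter on low counts (0.0745).

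MYCL (chr1:39895428-39902256), the most abundant of the family here, went up at 4 h and was back at the level of DMSO or under it at 24 h. At 4 h it had 30.6, 29.4 and 37.0 CPM in DMSO, 57.4, 68.4 and 67.7 CPM with i-BET858 and 44.4, 42.2 and 47.7 CPM with i-BET151. Neither drug group overlapped DMSO, nor did they overlap each other. The rise was 1.00 ± 0.14 on the log2 scale with i-BET858 (adjusted p = 2.3e-04), and 0.47 ± 0.14, which is 1.38-fold, under i-BET151 (0.0368). The i-BET151 call was lost without any 1 of the libraries of that comparison other than DMSO replicate 3 (0.40 to 0.51, adjusted p = 0.0708 to 0.143) and with no filter on low counts (0.0529). At 24 h the levels were 37.4, 33.6 and 40.3 CPM in DMSO, 28.8, 25.9 and 36.5 CPM with i-BET858 and 24.8, 26.4 and 35.8 CPM with i-BET151. Replicate 3 of each drug was within the range of DMSO and the other libraries were under it. The 24 h values were -0.33 ± 0.17 (adjusted p = 0.158) under i-BET858 and -0.38 ± 0.17 (0.123) under i-BET151. They passed with the block (0.0138 and 0.00752) and with replicates 1 and 2 only (0.00355 and 9.75e-04). The i-BET151 value also passed without i-BET151 replicate 3 (-0.57, adjusted p = 0.023).

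MAX (chr14:65006174-65102695), the common partner, moved by a small amount. Its levels ran from 38.8 to 48.1 CPM in DMSO at 4 h, 48.6 to 59.4 CPM with i-BET858 and 50.4 to 57.1 CPM with i-BET151, with no overlap between the treated and the DMSO libraries. The log2 values of 0.30 ± 0.13 and 0.32 ± 0.13 did not pass (adjusted p = 0.107 and 0.132) but did with the block (0.022 and 0.0234) and with all 18 libraries in the fit (0.04 and 0.0436). With total library size the i-BET858 value was 0.14 (adjusted p = 0.501). At 24 h MAX had 36.9 to 39.8 CPM in DMSO, 48.9 to 50.6 CPM with i-BET858 and 46.7 to 49.5 CPM with i-BET151. It rose 1.25-fold with i-BET858 (0.32 ± 0.09, adjusted p = 0.0127) and 1.21-fold with i-BET151 (0.28 ± 0.09, adjusted p = 0.0324). Without any 1 library of its comparison the i-BET151 call was lost (0.24 to 0.30, adjusted p = 0.0531 to 0.0892). The calls of both drugs were lost with total library size (0.0709 and 0.072) and with no filter on low counts (0.0581 and 0.191). MAX shares 13.1% of its exon bases with FNTB on the opposite strand, a farnesyltransferase subunit gene at 2.61 to 9.40 CPM. FNTB fell in 3 of the comparisons (-1.14 and -0.96 with i-BET858 at 4 and 24 h, -0.88 with i-BET151 at 24 h). The part of these shared bases in the MAX values was not tested.

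In the repressor arm MXD1, MXD3 and MXD4 rose in all 4 comparisons. MXD1 (MAD1, chr2:69897688-69942945), a gene known to be switched on as cells leave the cycle and differentiate, had 11.9, 13.2 and 11.3 CPM in DMSO at 4 h, 36.0, 45.8 and 44.8 CPM with i-BET858 and 35.1, 32.5 and 31.6 CPM with i-BET151. At 24 h it had 9.94, 10.4 and 7.58 CPM in DMSO, 30.8, 28.5 and 32.8 CPM with i-BET858 and 25.0, 29.4 and 19.7 CPM with i-BET151. The lowest treated library, at 19.7 CPM, was above the highest DMSO library, at 13.2 CPM. MXD1 rose 3.48-fold with i-BET858 at 4 h (1.80 ± 0.15, adjusted p = 7.16e-06) and 3.21-fold at 24 h (1.68 ± 0.17, 2.46e-05). With i-BET151 it rose 2.72-fold at 4 h (1.44 ± 0.14, adjusted p = 8.73e-05) and 2.61-fold at 24 h (1.39 ± 0.17, 1.42e-04). All 4 calls held under each alternative setting that was run.

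MXD4 (MAD4, chr4:2247432-2262109), the most abundant repressor here, had 52.2, 52.3 and 53.6 CPM in DMSO at 4 h, 91.9, 124 and 85.4 CPM with i-BET858 and 83.0, 98.1 and 99.0 CPM with i-BET151. At 24 h it had 59.2, 57.0 and 62.9 CPM in DMSO, 155, 161 and 181 CPM with i-BET858 and 113, 99.3 and 137 CPM with i-BET151. The treated groups overlapped each other at 4 h but not at 24 h, and they did not overlap DMSO at either time. It rose 1.91-fold (0.93 ± 0.15, adjusted p = 6.69e-04) and 1.77-fold (0.82 ± 0.15, 0.00344) at 4 h, and 2.70-fold (1.43 ± 0.13, 1.5e-05) and 1.92-fold (0.94 ± 0.13, 3.54e-04) at 24 h, with i-BET858 and i-BET151 respectively. MXD4 took 56.1% ± 2.69 (SD, n = 3) of the summed MXD, MXI1 and MNT transcripts per length with i-BET858 at 24 h and 48.8% ± 4.89 with i-BET151, against 41.1% ± 2.42 in DMSO. At 4 h its share was 42.6% ± 1.12 in DMSO, 40.9% ± 2.84 under i-BET858 and 42.8% ± 3.71 under i-BET151, so the 3 groups were within their spread of each other.

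MXD3 (MAD3, chr5:177301461-177312757), a member expressed in dividing cells, had 9.24, 14.0 and 8.97 CPM in DMSO at 4 h, 39.1, 40.4 and 20.5 CPM with i-BET858 and 31.4, 35.3 and 22.2 CPM with i-BET151. Replicate 3 was the lowest of each group, although above all DMSO libraries of that time. Its rise at 4 h was 3.11-fold with i-BET858 (1.64 ± 0.28, adjusted p = 0.00112) and 2.75-fold with i-BET151 (1.46 ± 0.28, 0.005). At 24 h it had 21.9, 19.6 and 16.6 CPM in DMSO, 33.0, 38.5 and 29.5 CPM with i-BET858 and 37.2, 28.6 and 31.7 CPM with i-BET151, which was 1.69-fold (0.76 ± 0.15, adjusted p = 0.00219) and 1.65-fold (0.73 ± 0.15, 0.00382) above DMSO. MXD3 shares 24.2% of its exon bases with PRELID1 on the opposite strand and 19.5% with RAB24 on the same strand. Neither of these neighbours passed the test in any of the 4 comparisons, with log2 values from -0.51 to 0.26 for PRELID1 and from -0.33 to 0.36 for RAB24.

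The remaining repressors moved less. MXI1 (chr10:110207605-110287365), which represses MYC target genes with SIN3, had 23.3 to 24.1 CPM in DMSO at 4 h, 29.7 to 37.5 CPM with i-BET858 and 26.4 to 31.7 CPM with i-BET151, with no overlap with DMSO. It rose 1.41-fold with i-BET858 (0.50 ± 0.14, adjusted p = 0.0165), and its value with i-BET151 was 0.28 ± 0.14 (adjusted p = 0.19). The i-BET858 call was lost without DMSO replicate 1 (0.48, adjusted p = 0.0645), DMSO replicate 2 (0.49, 0.0621) or i-BET858 replicate 1 (0.40, 0.0739). It was also lost with total library size (0.34, adjusted p = 0.103) and with no filter on low counts (0.48, 0.0508). At 24 h the values of MXI1 were -0.17 ± 0.11 and -0.06 ± 0.11 (adjusted p = 0.235 and 0.714), and all 3 groups lay between 24.7 and 29.7 CPM. MNT (chr17:2384073-2401104), the repressor found in most cell types, had 15.2 to 22.0 CPM in DMSO at 4 h, 11.6 to 15.6 CPM with i-BET858 and 13.0 to 19.6 CPM with i-BET151, and both drug groups overlapped DMSO. Its value of -0.41 ± 0.21 with i-BET858 (adjusted p = 0.178) passed with the block (0.0395) and with total library size (-0.57, adjusted p = 0.046). With i-BET151 at 4 h it was -0.28 ± 0.21 (0.43), and it was -0.15 without DMSO replicate 3, -0.18 without i-BET151 replicate 1 and -0.50 without i-BET151 replicate 3 (adjusted p = 0.767, 0.719 and 0.129). At 24 h MNT had 18.5 to 19.6 CPM in DMSO, 21.9 to 23.0 CPM with i-BET858, without overlap, and 17.6 to 22.4 CPM with i-BET151, which overlapped DMSO. Its log2 values were 0.19 ± 0.12 and 0.03 ± 0.13 (adjusted p = 0.254 and 0.881). With total library size the first of these was 0.10 (adjusted p = 0.527). The second of these values changed sign with total library size and with replicates 1 and 2 only.

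MGA (chr15:41621134-41773081) was the member that passed the test in opposite directions at the 2 times. At 4 h it had 62.9, 71.4 and 73.1 CPM in DMSO, 26.8, 26.0 and 25.5 CPM with i-BET858 and 32.9, 32.7 and 37.3 CPM with i-BET151. The 3 groups were apart from each other, with i-BET858 the lowest. MGA fell to 0.378 of the DMSO level with i-BET858 (-1.40 ± 0.12, adjusted p = 1.18e-05) and to 0.495 with i-BET151 (-1.01 ± 0.12, 2.64e-04), and both calls held under each alternative setting that was run. At 24 h it had 61.0, 60.9 and 38.8 CPM in DMSO, 98.6, 74.9 and 79.5 CPM with i-BET858 and 74.3, 83.5 and 70.8 CPM with i-BET151. All treated libraries were then above all DMSO libraries. The rise was 1.54-fold with i-BET858 (0.62 ± 0.17, adjusted p = 0.0126) and 1.40-fold with i-BET151 (0.49 ± 0.17, 0.0451). The 24 h calls were the less stable ones. The i-BET858 call was lost without i-BET858 replicate 1 (0.49, adjusted p = 0.0609) and with total library size (0.52, 0.0512). The i-BET151 call was lost without any 1 library of its comparison other than DMSO replicate 1 (0.32 to 0.58, adjusted p = 0.053 to 0.154), with total library size (0.102), with DESeq2 size factors (0.0509) and with only the 2 groups compared (0.0592).

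**Figure D2:**
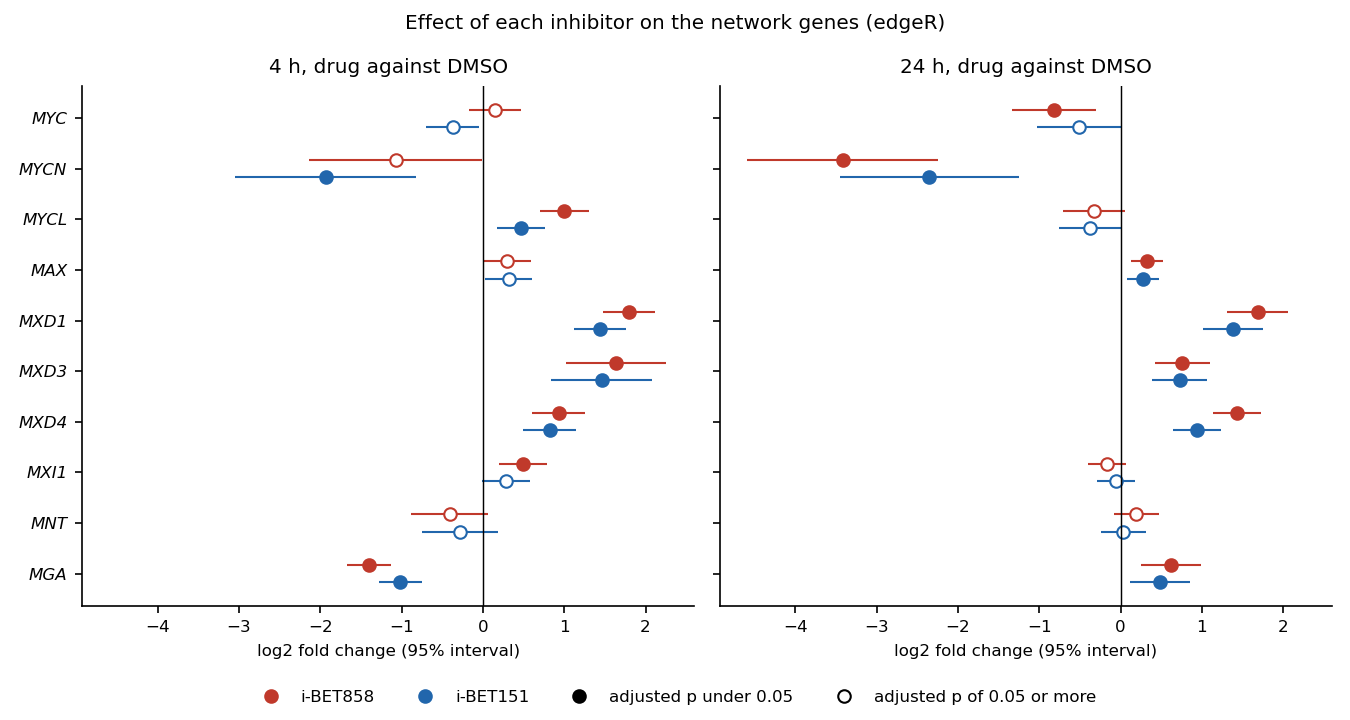
Log2 fold change against DMSO with its 95% interval for each network gene at 4 h (left) and 24 h (right), i-BET858 in red and i-BET151 in blue, with filled points for an adjusted p under 0.05 (edgeR, n = 3 per group). MXD1, MXD3 and MXD4 lie to the right of 0 in all 4 comparisons, MYCN lies to the left, and MGA changes side between 4 h (-1.40 and -1.01) and 24 h (0.62 and 0.49).

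Whether the response differed between the times was tested as an interaction over the 18 libraries. With i-BET858, 6 members differed, 2 with a higher effect at 24 h (MGA and MXD4) and 4 with a lower one (MYC, MYCN, MYCL and MXI1), against 27.2% of all genes (14.6% higher, 12.6% lower). MGA moved by 2.06 ± 0.22 on the log2 scale (adjusted p = 3.82e-06) and MYCL by -1.29 ± 0.22 (3.13e-04). MYCN moved by -2.30 ± 0.65 (adjusted p = 0.013), MYC by -0.92 ± 0.28 (0.0189) and MXI1 by -0.62 ± 0.16 (0.00877). The MYC call was lost without DMSO 4 h replicate 2 (-0.83, adjusted p = 0.0514), DMSO 24 h replicate 3 (-0.65, 0.0622) or i-BET858 24 h replicate 2 (-0.82, 0.0512). With no filter on low counts the MYCN and MXI1 calls were lost (adjusted p = 0.162 and 0.107). The MXD4 value of 0.54 ± 0.20 (adjusted p = 0.0475) was close to the threshold and was lost without any 1 of the DMSO and i-BET858 libraries other than i-BET858 4 h replicate 2 (0.41 to 0.59, adjusted p = 0.0515 to 0.156), with replicates 1 and 2 only (0.38, 0.116), with DESeq2 (0.49, 0.0773), with its size factors in edgeR (0.0854) and with i-BET151 left out of the fit (0.50, 0.0678). With i-BET151, 2 members differed, MGA (1.52 ± 0.21, adjusted p = 2.33e-04) and MYCL (-0.82 ± 0.22, 0.0181), 1 in each direction, against 13.8% of all genes (6.99% higher, 6.82% lower). The MYCL value was -0.76 (adjusted p = 0.0529) without i-BET151 24 h replicate 2. With the block, MXD3 passed as well for both drugs (-0.80, adjusted p = 0.003, and -0.71, adjusted p = 0.0114) and MNT for i-BET858 (0.64, adjusted p = 0.00828). The same 3 values passed with replicates 1 and 2 only (adjusted p = 0.00501, 0.0184 and 0.0363). For i-BET858, MXD3 also passed with DESeq2 (0.0341) and with no filter on low counts (0.0147), and MNT with total library size (0.0349).

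DMSO cells were compared between 24 h and 4 h as the background of time alone, and 0 of the 10 members passed, against 0.0386% of all genes. At an unadjusted p under 0.05, 3 members differed (edgeR), beside 9.17% of all genes, namely MXD3 (0.85 ± 0.24, adjusted p = 0.214), MXD1 (-0.38 ± 0.16, 0.448) and MGA (-0.37 ± 0.15, 0.438). MXD3 passed with the replicate block (0.86, adjusted p = 0.0124), with DESeq2 (0.86, 0.0404) and with no filter on low counts (0.83, 0.00383). Its DMSO level of 8.97 to 14.0 CPM at 4 h and 16.6 to 21.9 CPM at 24 h did not overlap.

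The drugs were then set directly against each other at the same dose and time, for 10 members at each of the 2 times. At 4 h, 0 of 10 members passed, against 0.971% of all genes, and 4 had an unadjusted p under 0.05 (edgeR), beside 11.9% of all genes. In these, i-BET858 was above i-BET151 for MYC by 0.52 (95% interval 0.19 to 0.85, adjusted p = 0.141), for MYCL by 0.53 (0.24 to 0.83, 0.0948) and for MXD1 by 0.36 (0.05 to 0.67, 0.311), and below it for MGA by -0.39 (-0.65 to -0.12, 0.181). In MYC, MYCL, MXD1 and MGA alike, the 3 libraries of a drug did not overlap those of the other. MYCN did not overlap between the drugs either, with i-BET858 the higher at 4 h and the lower at 24 h. The share of all genes without overlap is not given here, so these separations are not read against a background. With the block MYC (adjusted p = 0.0227), MYCL (0.00534) and MGA (0.0319) passed, and DESeq2 called MYC (0.036) and MYCL (0.0149). The 0.971% of all genes belongs to edgeR without the block, so these calls are not set against it. For the other 6 members at 4 h the intervals held 0, the narrowest being that of MAX (-0.30 to 0.27) and the widest that of MYCN (-0.25 to 1.98). At 24 h, 0 of 10 passed, against 0.21% of all genes, and 1 had an unadjusted p under 0.05 (edgeR), beside 11.4% of all genes. This was MXD4, higher with i-BET858 by 0.49 (0.20 to 0.78, adjusted p = 0.17), which passed with the block (0.00949), with DESeq2 (0.0312), with no filter on low counts (0.0118) and with replicates 1 and 2 only (0.00216). Without the block the other 24 h intervals all held 0, among them MYC (-0.82 to 0.21), MYCL (-0.34 to 0.43), MXD1 (-0.06 to 0.66) and MGA (-0.24 to 0.50). With the block, those of MYC (-0.53 to -0.06) and MXD1 (0.02 to 0.61) did not hold 0, although neither gene passed (adjusted p = 0.16 and 0.227). Differences within the intervals that held 0 were not resolved with 3 libraries a group.

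Summed by arm and per length, the ratio of repressor to activator transcripts was above that of DMSO without overlap with i-BET151 at 4 h and with both drugs at 24 h. The levels of MYC, MYCN and MYCL together were 11.5 ± 1.31 RPKM (SD, n = 3) in DMSO at 4 h, 18.2 ± 1.56 with i-BET858 and 12.6 ± 0.34 with i-BET151. At 24 h they were 12.7 ± 2.08, 8.86 ± 1.56 and 9.24 ± 1.97 in the same order. Thus the activator sum with i-BET858 lay above DMSO at 4 h (lowest library 16.4 against highest 12.9) and below it at 24 h (highest 10.6 against lowest 11.2). The 4 h rise was mostly that of MYCL, with a mean of 6.50 RPKM in DMSO and 13.0 with i-BET858. MYC went from 4.49 to 4.96 and MYCN from 0.498 to 0.235. The sum of MXD1, MXD3, MXD4, MXI1 and MNT ran from 17.5 to 18.4 RPKM in DMSO at 4 h, where it was 35.5 ± 5.22 and 31.7 ± 1.01 RPKM under i-BET858 and i-BET151. It was 21.2 ± 0.77, 42.9 ± 1.59 and 34.5 ± 2.26 RPKM at 24 h. All treated libraries were above all DMSO libraries in this sum. The ratio of the repressor to the activator sum was 1.58 ± 0.20 in DMSO at 4 h, 1.97 ± 0.33 under i-BET858 and 2.51 ± 0.10 under i-BET151. At 24 h it was 1.69 ± 0.27, 4.93 ± 0.72 and 3.82 ± 0.60 in that order. At 4 h the ratio with i-BET858 (1.58 to 2.18) overlapped DMSO (1.40 to 1.80), although it was above the DMSO library of the same number in 3 of 3 pairs (2.13 against 1.54, 2.18 against 1.80 and 1.58 against 1.40). At 24 h neither drug overlapped DMSO. MAX itself stayed between 5.89 and 9.49 RPKM. These sums describe transcripts and not proteins, and no test was made on them.

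**Figure D3:**
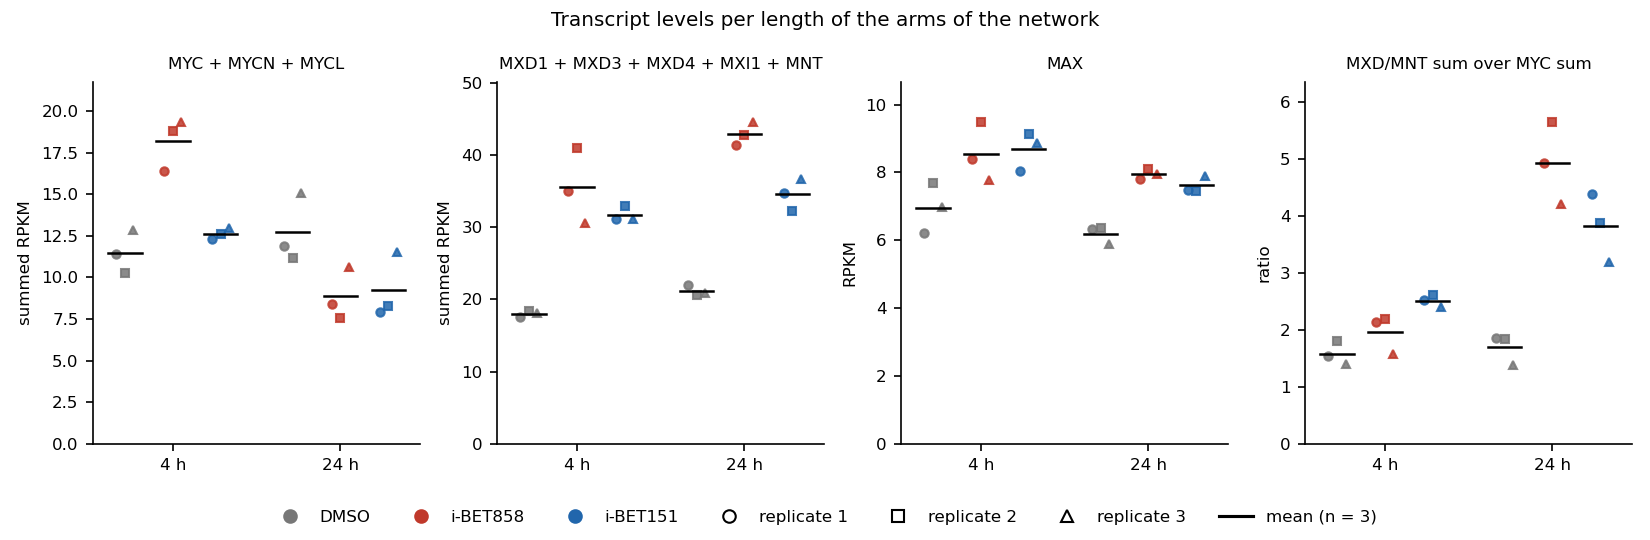
Per-library levels per length (RPKM, merged exons) of the activators MYC, MYCN and MYCL summed, of the repressors MXD1, MXD3, MXD4, MXI1 and MNT summed, of MAX, and the ratio of the repressor to the activator sum (no unit), in DMSO (grey), i-BET858 (red) and i-BET151 (blue) at 4 and 24 h; bars are means of 3. At 24 h the ratio was 1.39 to 1.85 in DMSO, 4.21 to 5.65 with i-BET858 and 3.19 to 4.38 with i-BET151.

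Genes usually given as MYC targets, of ribosome assembly, nucleotide synthesis and metabolism, passed the test as lower more often than as higher. Of 60 such genes, 59 were tested. With i-BET858 at 4 h, 21 fell (35.6%, beside 16.3% of all genes) and 6 rose (10.2%, beside 14.5%), with a median log2 fold change of -0.27 beside 0.02 over all genes. With i-BET151 at 4 h, 9 fell (15.3%, beside 8.43%) and 2 rose (3.39%, beside 7.81%), with a median of -0.17 beside 0.01. At 24 h 37 fell (62.7%, beside 21.3% of all genes) and 1 rose (1.69%, beside 20.5%) under i-BET858, with a median of -0.51 beside -0.01. Under i-BET151, 33 fell (55.9%, beside 16.6%) and 2 rose (3.39%, beside 17.2%), with a median of -0.44 beside 0.00. With replicates 1 and 2 only, the numbers that fell were 27, 16, 45 and 49, where 21.5%, 13.5%, 31.0% and 28.1% of all genes fell. Those with the greatest mean change were SLC19A1, the reduced folate carrier, TERT, the catalytic subunit of telomerase, PPAN, a ribosome assembly factor, and PPRC1, a coactivator of the PGC-1 family. SLC19A1 fell by 2.16 with i-BET858 and by 1.66 with i-BET151 at 24 h (adjusted p = 2.64e-05 and 2.16e-04). PPRC1 fell in all 4 comparisons, by 1.18 and 0.70 at 4 h and by 1.30 and 0.90 at 24 h (i-BET858 and i-BET151). TERT fell by 2.54 with i-BET858 at 24 h (adjusted p = 0.021), and PPAN fell by 2.28 at 4 h (0.00694) and by 0.91 at 24 h (0.0259) with i-BET858. At 4 h, MYC itself had not passed the test with either drug without the block. With the block its i-BET151 value passed (-0.37, adjusted p = 0.0426). Any part of MYC in the changes of these genes was not tested.

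The MLX arm, a parallel network in which MLX takes the place of MAX for glucose-sensing partners, gave mixed results. MLX fell with i-BET858 by 1.36 at 4 h (adjusted p = 5.53e-04) and by 0.37 at 24 h (0.0301), and with i-BET151 by 0.80 at 4 h (0.0216). MLXIPL (ChREBP) rose at 4 h by 1.07 with i-BET858 (adjusted p = 0.0266) and by 1.14 with i-BET151 (0.033), and MLXIP (MondoA) rose at 24 h by 0.50 (0.0043) and by 0.53 (0.00408). Per comparison, 1 of the 3 genes rose each time, and 1 fell in all but i-BET151 at 24 h, where 0 did. With 3 genes in the list, these counts were not read against the shares of all genes (30.8% and 16.2% in either direction at 4 h, 41.7% and 33.8% at 24 h, i-BET858 and i-BET151).

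The corepressors that MXD proteins and MNT recruit, the SIN3 and histone deacetylase complex, went in both directions. Of 14 genes, 3 rose and 4 fell with i-BET858 at 4 h, 2 and 1 with i-BET151 at 4 h, 3 and 2 with i-BET858 at 24 h, and 2 and 0 with i-BET151 at 24 h. Of all genes, 14.5% rose and 16.3% fell, 7.81% and 8.43%, 20.5% and 21.3%, and 17.2% and 16.6% in the same order, so most of these counts were near what those shares give in 14 genes. The medians were 0.18, 0.15, 0.03 and 0.08. SAP30, a subunit of this complex, rose in all 4 comparisons, by 1.76 and 1.72 at 4 h and by 1.87 and 1.85 at 24 h (adjusted p from 7.68e-05 to 0.0015). ING1, a subunit that reads histone methylation, also rose in all 4, by 1.70 and 1.15 at 4 h and by 1.06 and 0.66 at 24 h. SIN3A, the scaffold, fell by 0.75 with i-BET858 at 4 h (adjusted p = 0.00492) and did not pass in the other comparisons. SUDS3 fell with both drugs at 4 h (by 0.59 and 0.58) and with i-BET858 at 24 h (by 0.65).

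Cofactors of MYC activity (acetyltransferases, chromatin remodellers and others) included 6 genes of 12 that fell with i-BET858 at 4 h (beside 16.3% of all genes) and 0 that rose (beside 14.5%), with a median of -0.49 beside 0.02 over all genes. With i-BET151 at 4 h 1 fell and 0 rose (median -0.22), and the 8.33% that fell was near the share of all genes (8.43% lower, 7.81% higher). At 24 h 3 fell and 2 rose with i-BET858 (-0.11), and 2 fell and 1 rose with i-BET151 (0.04), shares near those of all genes (21.3% lower and 20.5% higher, and 16.6% and 17.2%). KAT5 (TIP60) fell by 1.67 (adjusted p = 7.5e-04) and CREBBP (CBP) by 1.30 (0.00974) with i-BET858 at 4 h, as did HCFC1 by 0.86 (0.0328), whereas KAT2A (GCN5) fell at 24 h by 1.36 and 1.15 (1.42e-05 and 7.27e-05) after values of -0.02 and -0.10 at 4 h. With replicates 1 and 2 only, 9 of the 12 fell with i-BET858 at 4 h, where 21.5% of all genes did.

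Regulators of MYC protein stability were more often higher than lower at 24 h and not at 4 h. Of 18 genes, 2 rose and 6 fell with i-BET858 at 4 h (median -0.03), and 2 rose and 2 fell with i-BET151 (0.03), beside 14.5% higher and 16.3% lower, and 7.81% and 8.43%, of all genes. At 24 h 8 rose (44.4%) and 2 fell (11.1%) with each drug (medians 0.34 and 0.25, beside -0.01 and 0.00 over all genes). Of all genes, 20.5% rose and 21.3% fell under i-BET858 at that time, and 17.2% and 16.6% under i-BET151. The list holds genes that stabilise MYC and genes that mark it for destruction, so its median has no direction for MYC protein. PIM1, a kinase that stabilises MYC, rose in all 4 comparisons (1.12 and 0.97 at 4 h, 1.09 and 0.83 at 24 h). GSK3B, a kinase that marks MYC for destruction, rose at 24 h by 1.10 and 0.97 (adjusted p = 1.93e-05 and 7.67e-05). TRIM32, a ubiquitin ligase of MYC, fell in all 4 comparisons, by 2.12 and 1.12 at 4 h and by 0.69 and 0.55 at 24 h.

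The partners of MGA in PRC1.6 included both falling and rising genes. Of 13 genes, 6 fell and 1 rose with i-BET858 at 4 h, 2 fell and 1 rose with i-BET151 at 4 h, 6 fell and 2 rose with i-BET858 at 24 h, and 4 fell and 2 rose with i-BET151 at 24 h. The shares that fell were 46.2%, 15.4%, 46.2% and 30.8%, beside 16.3%, 8.43%, 21.3% and 16.6% of all genes, which for i-BET151 at 4 h is a difference of a single gene. The shares that rose were 7.69%, 7.69%, 15.4% and 15.4%, beside 14.5%, 7.81%, 20.5% and 17.2% of all genes. The medians were -0.35, -0.13, -0.20 and -0.12. L3MBTL2, a reader subunit, fell by 0.96 and 0.65 at 4 h and by 0.89 and 0.70 at 24 h, and PCGF6, the subunit that gives the complex its number, by 0.98 and 0.58 at 4 h and by 0.92 and 0.63 at 24 h. RNF2, the ubiquitin ligase, fell by 0.51 with i-BET858 at 4 h and by 0.64 and 0.53 at 24 h. RYBP rose in all 4, by 0.78 and 0.57 at 4 h and by 1.12 and 0.77 at 24 h (adjusted p from 6.77e-06 to 0.00819). At 24 h L3MBTL2 and PCGF6 were thus below DMSO while MGA was above it.

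**Figure D4:**
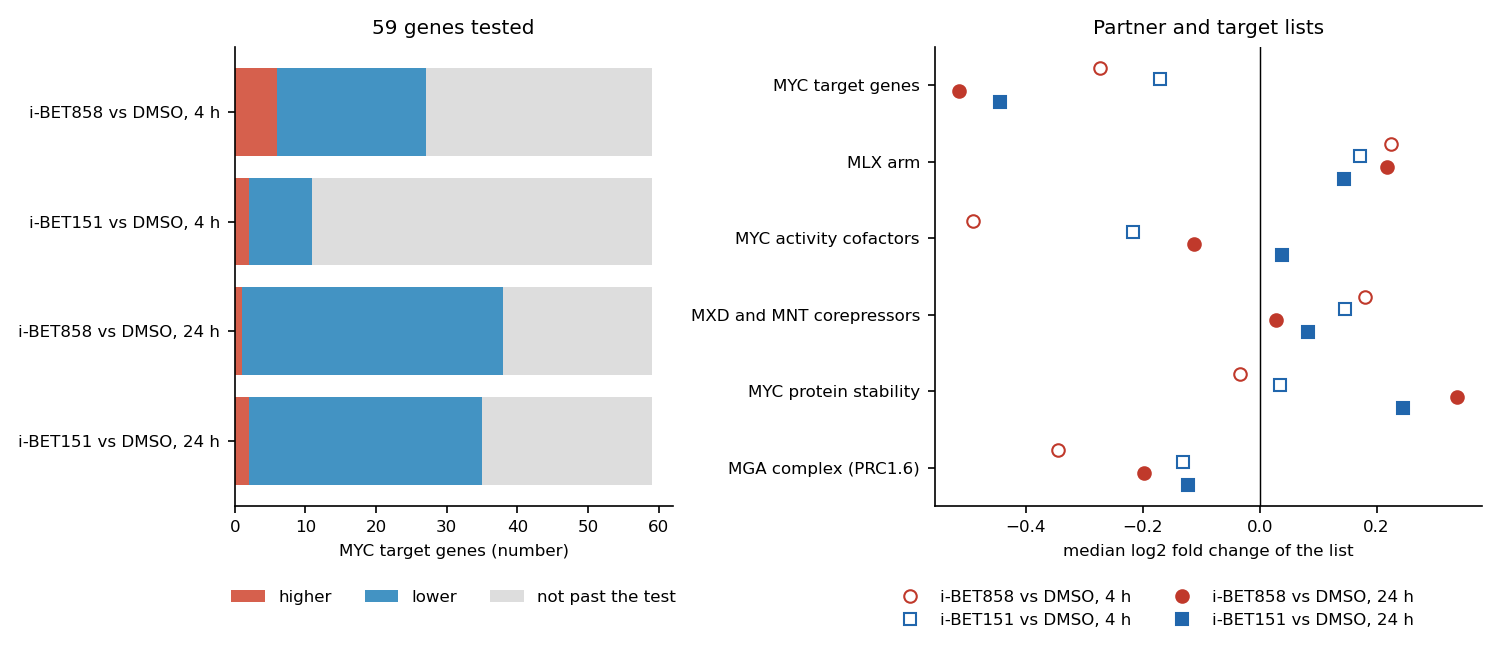
Left, number of the 59 tested MYC target genes that were higher (red), lower (blue) or not past the test (grey) in each comparison with DMSO (edgeR, adjusted p under 0.05). Right, median log2 fold change of each list of partners and targets, with i-BET858 as red circles and i-BET151 as blue squares, open at 4 h and filled at 24 h; the MYC target medians run from -0.17 to -0.51, all left of 0.

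Over the 18 libraries and 18154 genes, the genes whose log2 CPM was most like that of MYC were CD83 (Pearson r = 0.89), TNFRSF13C (0.87) and NT5C3B (0.87). Those most like MXD1, the member with the greatest mean change among those of at least moderate level, were IFFO2 (0.99), WDR47 (0.99) and TRIM24 (0.98). Among the members, MXD1 and MAX ran together (0.86), as did MXD3 and MXD4 (0.79), MYC and MYCN (0.77) and MNT and MGA (0.75), while MYCL ran against MGA (-0.90) and MYCN against MXD4 (-0.88). The points share the 6 groups and the depth of the libraries, so these coefficients describe the pattern over the groups and are given without a test.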

How the data were processed

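Poly-A libraries (paired-end) of OVCAR-3 cells were aligned by the authors to GRCh38 with STAR, and the deposited values are its raw counts per gene, without normalization, 1 table per time. Versions, annotation and strand setting are not given in the sources used here. The authors tested with DESeq2. STAR leaves reads that fall in more than 1 gene uncounted. Column names give drug and replicate, and the time was taken from the table. No column was left unassigned. Of 58825 gene identifiers, 58472 (99.4%) were matched to GENCODE 44 for symbols and exon lengths.

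Counts were scaled by TMM, filtered by expression and fitted with edgeR 4.0.16 (R 4.3.3) with the quasi-likelihood test: the 9 libraries of a time in 1 fit, or all 18 for the interactions and for DMSO over time. Benjamini-Hochberg adjustment ran over all genes tested, and 0.05 was the threshold. Alternatives were DESeq2 1.42.0, other scalings, no filter, a 2-fold threshold, replicates 1 and 2 only, other libraries in the fit, the replicate number as a block and each library left out. The labels number the replicates alike in all groups. Deviations from the group means correlated between libraries of the same number at 0.125 to 0.344 at 4 h and 0.145 to 0.330 at 24 h. Those of different numbers gave -0.311 to 0.216 (median -0.204) and -0.304 to 0.285 (-0.232), which overlaps, so these values alone do not show a pairing. The part of replicate 3, which stands apart, in them was not tested. Libraries of the same number were treated as pairs in the block and in the pairs by number, but not in the main test. No 2 replicates matched within counting noise (chi-square per degree of freedom at least 4.19).

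The scripts were tested on simulated data. For i-BET858 against DMSO at 24 h, edgeR recovered 10% of 1.5-fold and 58% of 2-fold changes, with 7 false calls. DESeq2 recovered 40% and 62%, with 47 false calls. For the change of the i-BET858 effect, edgeR recovered 0% and 30%, with 5 false calls. Changes of these sizes can therefore be missed here, and calls by DESeq2 alone are the less certain. All 10 members are named. From each list up to 4 genes are named, those with the largest mean change over the 4 comparisons with DMSO among genes past the test in at least 1. 1 gene named by this rule is not reported here. Likeness of pattern was ranked by Pearson r of log2 CPM (prior count 2), 3 genes each for MYC and for the member with the largest mean change among those with a mean log2 CPM of at least 1. Members and lists were chosen with earlier results of these data known.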

Additional observations from a re-analysis of the deposited data

Results flagged for a closer look

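For 8 results, the effect of a drug at 24 h differed from its effect at 4 h by the interaction test (edgeR, adjusted p under 0.05). With i-BET858 the differences on the log2 scale were -0.92 for MYC, -2.30 for MYCN, -1.29 for MYCL, 0.54 for MXD4, -0.62 for MXI1 and 2.06 for MGA. With i-BET151 they were -0.82 for MYCL and 1.52 for MGA. MGA and MYCL differed for both drugs, which share their DMSO libraries.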

How the results depend on the processing

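The 48 results for single genes counted here are each member in the comparisons of a drug with DMSO, and the changes of effect that had passed. The direct comparisons of the drugs, DMSO over time and the changes of effect that had not passed were not counted. Calls gained in those are given beside their results and are not in the numbers below. Of the 48 results, 25 kept their direction and side of the threshold under every alternative. Among these were all those of MXD1 and the 4 h fall of MGA. Outside the left-out libraries, 339 of 376 alternatives left the call and direction as they were, 19 lost it, 15 gained it and 3 reversed the sign. With a library left out, 289 of 336 did so, 43 lost the call, 2 gained it and 2 reversed the sign. The signs that reversed belonged to values that had not passed. MYC with i-BET858 at 4 h was -0.0114 with total library size. MNT with i-BET151 at 24 h was -0.00209 with total library size, -0.0665 with replicates 1 and 2 only and -0.0825 to 0.105 with a library left out.

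With a 2-fold threshold as well, 4 members passed at 4 h with i-BET858 and 4 with i-BET151, beside 14.1% and 7.10% of all genes. At 24 h, 3 passed with i-BET858 and 2 with i-BET151, beside 18.8% and 13.7%. For the change of effect, 3 passed with i-BET858 and 1 with i-BET151, beside 15.1% and 6.70%. Without the fold threshold, the count for the change of the i-BET151 effect was 1 to 2 with a library left out. In the direct comparison at 4 h, DESeq2 called 2 members and the replicate block 3. At 24 h 1 member was called with each of DESeq2, the block, no filter on low counts and replicates 1 and 2 only. DMSO at 24 h against 4 h gave 1 with each of DESeq2, the block and no filter. The shares of all genes called under these settings are not given here, so these counts are not read against a background. The block gave more calls than the fit without it in these comparisons, and the other calls it changed are given beside their results. The cause was not tested.

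With the longest transcript in place of merged exons, a shorter length, the sums rose. For DMSO, i-BET858 and i-BET151 they were 17.1, 26.7 and 18.6 RPKM at 4 h and 18.7, 13.1 and 13.7 at 24 h for the MYC family. For the repressors they were 30.0, 58.4 and 52.5, then 36.2, 71.3 and 58.1, and for MAX 13.8, 16.96 and 17.2, then 12.3, 15.8 and 15.1. The ratio moved by over 1 SD for i-BET151 at 4 h (2.83) and DMSO at 24 h (1.97).

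The main limits are 3 libraries a group, a replicate 3 that stands apart, MYCN at 5 to 26 counts in treated libraries, exons shared with neighbours on a strand setting that is not given, and RNA without protein. A missed threshold does not show that a member was unchanged.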
